A study of Mus musculus with 4 samples.

Results

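The genes described here are 38 genes of skeletal muscle, chosen by symbol for their place in muscle: transcription factors of the muscle lineage, a fusion protein and a cadherin, acetylcholine receptor subunits, and proteins of the contractile apparatus and of its calcium and energy supply. Their transcripts were measurable in cultures labelled as cartilage cells, and differed more between libraries of the same genotype than between the genotypes. All 38 were found among the 25239 gene symbols of the count table. Of these, 35 had counts in at least 1 library and 19 had counts in all 4. The other 3, Pax7, Myf5 and Myf6, had 0 counts in every library. Checked against its own markers, the set was present through its contractile genes, while 3 of its 5 lineage transcription factors were not detected.

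RNA-seq was done on primary chondrocytes of mice, the cells that build cartilage. The 2 control libraries came from Tiki2 fl/fl mice, whose Tiki2 gene is flanked by recombination sites and intact without Cre. The 2 conditional knockout (cKO) libraries carry the genotype Tiki2 fl/fl; Col2a1-Cre/ERT, written with Col2a-CreERT2 in the sample characteristics, which adds a tamoxifen-dependent Cre driven by a type II collagen promoter. Cells of both genotypes, controls included, received 4-hydroxytamoxifen. Recombination is thus limited to cells that held Cre from that promoter during the treatment, and no Cre-carrying group without floxed alleles was analysed here. Nothing in the labels ties the 2 libraries of a group to different animals. The sex-linked genes given below differed between the 2 controls, so these did not come from the same animal. For the 2 cKO libraries this is not known. A p-value here therefore speaks for the spread of these samples alone. Libraries are called control 1, control 2, cKO 1 and cKO 2 after their labels' replicate numbers.

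Skeletal muscle forms when precursor cells marked by Pax7 switch on the transcription factors Myf5 and Myod1, and then Myog, which drives terminal differentiation. The differentiating cells leave the cell cycle, fuse into multinucleated fibres and assemble sarcomeres, repeating units in which myosin thick filaments pull on actin thin filaments under the control of troponin and calcium. Myosin, actin and troponin genes come as families whose members are used in embryonic, neonatal, slow or fast fibres.

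The promoters of 4 members are printed because the members moved together across libraries, and because they show the elements known from muscle promoters. Myog and Chrna1 stand for a lineage regulator and a synaptic gene, Actc1 for a thin filament gene, and Myoz2 for a member that did not keep the common order. Each line gives the 250 bases upstream of the RefSeq start, read 5′ to 3′ on the gene's strand (RefSeq, build GRCm38.p6). Capitals mark the E-box CANNTG, bound by Myod1 and Myog, the binding site of MEF2 factors, and the CArG box, bound by serum response factor, wherever a script matched them on either strand. Myog lies at chr1:134289754-134290003 (plus strand), Chrna1 at chr2:73580339-73580588 (minus strand), Actc1 at chr2:114052876-114053125 (minus strand) and Myoz2 at chr3:123034988-123035237 (minus strand).
Myog: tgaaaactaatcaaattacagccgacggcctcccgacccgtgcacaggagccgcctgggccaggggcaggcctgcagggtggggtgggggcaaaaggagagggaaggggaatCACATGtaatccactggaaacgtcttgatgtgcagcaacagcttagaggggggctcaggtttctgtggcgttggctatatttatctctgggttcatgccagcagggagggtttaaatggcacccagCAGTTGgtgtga
Chrna1: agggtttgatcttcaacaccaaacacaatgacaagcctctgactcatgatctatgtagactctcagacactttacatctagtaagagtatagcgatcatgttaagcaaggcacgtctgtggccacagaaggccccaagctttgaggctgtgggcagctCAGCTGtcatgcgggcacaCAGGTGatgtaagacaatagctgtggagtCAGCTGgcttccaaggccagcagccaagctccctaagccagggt
Actc1: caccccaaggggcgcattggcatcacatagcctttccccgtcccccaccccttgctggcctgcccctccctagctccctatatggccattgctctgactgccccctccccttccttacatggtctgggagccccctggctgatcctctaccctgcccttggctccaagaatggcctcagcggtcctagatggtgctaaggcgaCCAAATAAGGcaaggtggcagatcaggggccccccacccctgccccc
Myoz2: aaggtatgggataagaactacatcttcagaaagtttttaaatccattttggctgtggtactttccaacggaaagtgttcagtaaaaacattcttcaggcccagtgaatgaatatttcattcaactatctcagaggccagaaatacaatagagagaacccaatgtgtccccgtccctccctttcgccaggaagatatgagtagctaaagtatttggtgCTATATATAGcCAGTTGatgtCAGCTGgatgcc
Myog held an E-box 138 and another 12 bases before its start. Chrna1 held 3 E-boxes between 92 and 44 bases before its start, of which the outer ones read CAGCTG in both cases. In Actc1, a CArG box lay 47 bases before its start. Myoz2 held a match to the MEF2 site closely followed by a pair of E-boxes, at 33, 22 and 12 bases before its start. The marks are matches of letters to a fixed pattern for each element, and forms outside that pattern were left unmarked.

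RefSeq windows of 300 bases, with 250 before and 50 after the start, were matched by symbol for 31 of the 38 members. They were searched on both strands and set beside all 32851 windows of the same length. The E-box CANNTG was present in 80.6% of the members' windows and in 72.3% of all windows. CAGCTG, an E-box form that is its own reverse complement and is included in CANNTG, was present in 13 members (41.9%) against 16.3% of all windows. CACCTG, counted with its reverse complement and also included in CANNTG, was present in 8 members (25.8%) against 20.2%. The MEF2 site was found in 7 members (22.6%) against 3.2%, and the CArG box in 3 (9.7%), namely Acta1, Actc1 and Myh4, against 1.6%. These are matches of letters in a window and not measured binding.

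Total counts were 66750140 and 77285899 in control 1 and control 2, and 76425194 and 78873054 in cKO 1 and cKO 2. Levels are given as CPM, counts per 1000000 counts of the library, unless another scale is named. Trabd2b, the current symbol of Tiki2, stood at 436 and 415 CPM in control 1 and control 2 and at 292 and 363 in cKO 1 and cKO 2, on library sizes scaled by TMM (trimmed mean of M values). Its log2 fold change was -0.38 ± 0.11 (SE), with an adjusted p of 0.148 in the edgeR quasi-likelihood test, and counts over the whole gene need not show the loss of a floxed part. Control 1 stood apart from the other libraries in the sex-linked genes: Xist had 112185 counts there against 36 to 171, and the Y-linked gene Ddx3y had 0 against 11073 to 12085. Sex and library cannot be told apart in control 1. After row 18296 of the count table, all 6943 remaining rows are at 0 in control 1, and 15 of the 38 members lie in those rows. The sources used here do not say whether a 0 there means that no read was found. A count of 0 allows up to 3 counts, which is 0.0449 CPM in control 1 and 0.0380 to 0.0393 CPM in the others, and ratios to a library at 0 were computed against these 3 counts per library and written as at least. That bound takes the other library's count as exact, so the lower limit of the exact 95% interval, which is smaller, follows in parentheses.

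Summed over the 38 members, the level was 13.9 CPM in control 1 (95% exact Poisson interval 13.02 to 14.83), 88.7 in control 2 (86.7 to 90.9), 179 in cKO 1 (176 to 182) and 33.7 in cKO 2 (32.5 to 35.0). Each genotype therefore had 1 high and 1 low library. The sums rest on 928, 6858, 13668 and 2661 counts, and no interval touched another; the intervals cover counting error only, since copies of a molecule made by PCR cannot be told from separate molecules. The highest library exceeded the lowest 12.9-fold. Between the controls the sum differed 6.38-fold (interval 5.96 to 6.84) and between the cKO libraries 5.30-fold (5.09 to 5.53), while cKO 1 exceeded control 2 only 2.02-fold (1.96 to 2.08). The means of the 2 genotypes were 51.3 CPM in control and 106 CPM in cKO, closer together than the libraries of either genotype. In bulk RNA, fewer muscle cells and less muscle RNA per cell cannot be told apart.

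**Figure D1:**
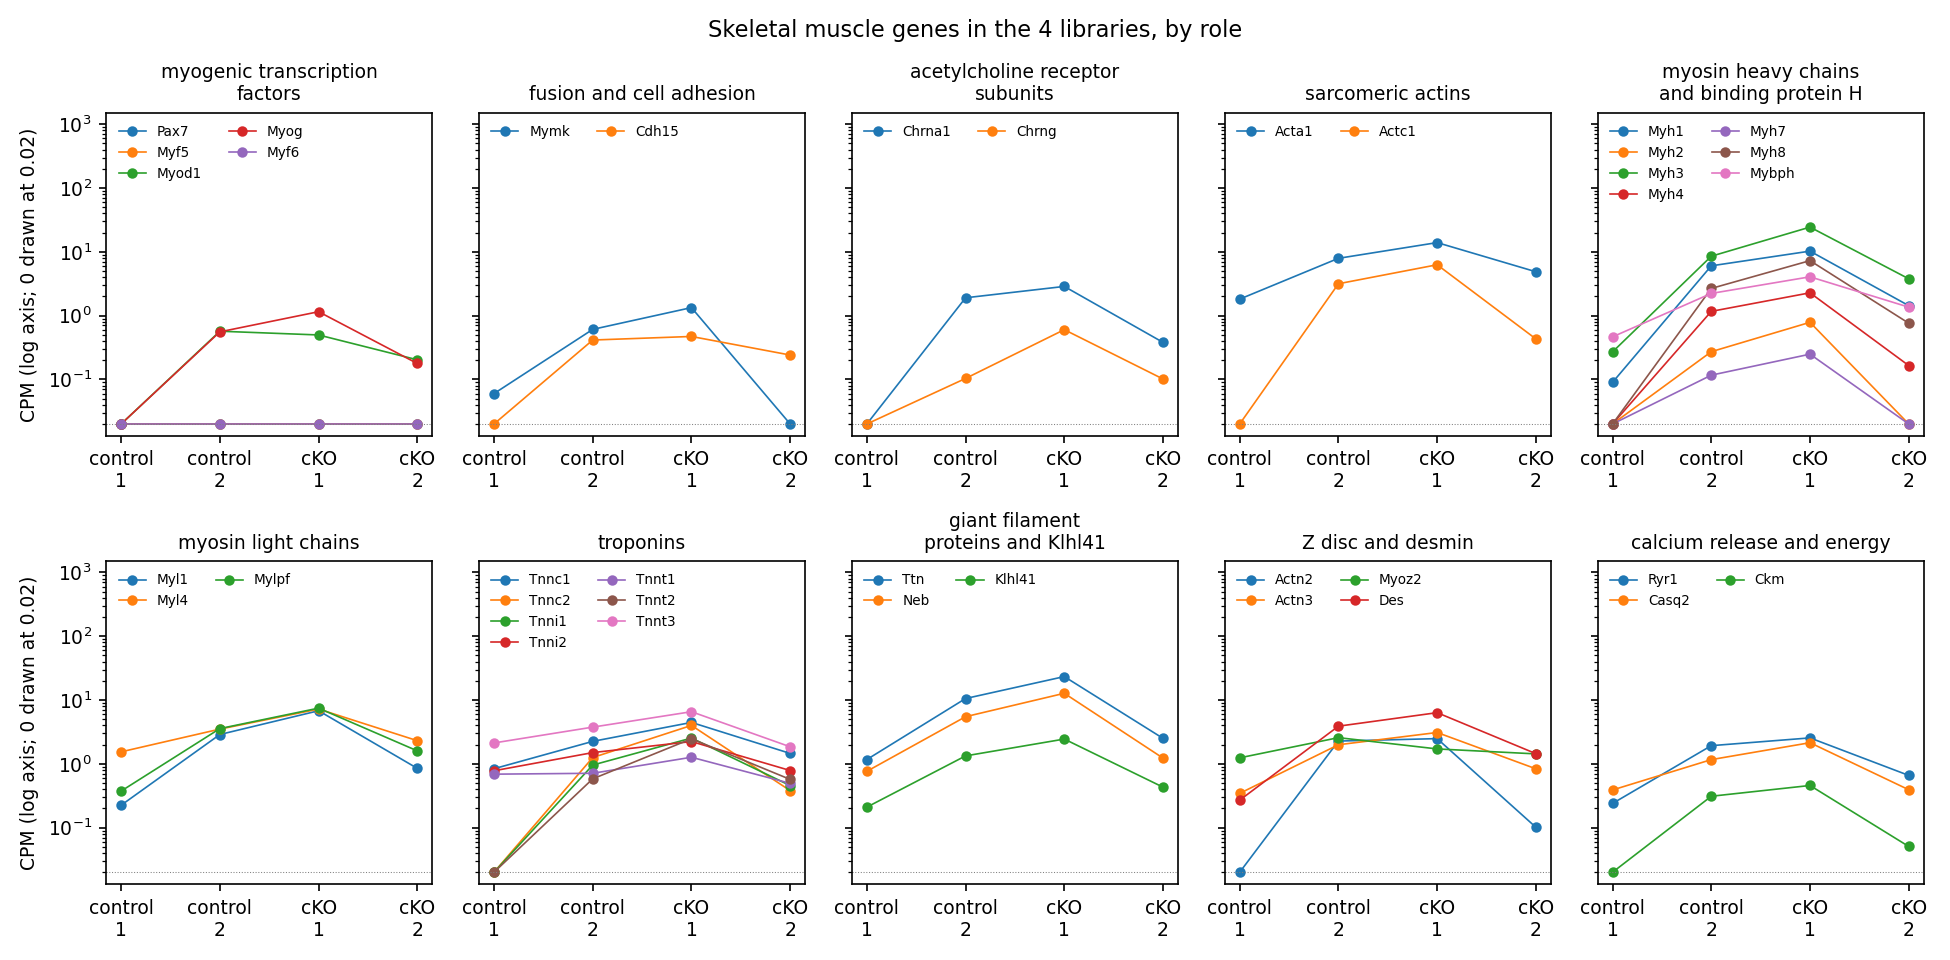
CPM of each member (log axis, 0 drawn at the dotted line) in the 4 libraries, 1 panel per role; points are single libraries and lines join the same gene. Most lines peak in cKO 1, with control 2 next, and 18 members lie at 0 in control 1.

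The members shared this order closely. Of the 35 members with counts, 33 were highest in cKO 1, 30 were lowest in control 1 and 28 kept the whole order of cKO 1, control 2, cKO 2 and control 1. That is the order of their own sum, and the tested members passed the filter on low counts through their high libraries. These counts are therefore a description and no test. Among the 33 members that passed the filter, 27 kept the order, against 3.43% of the 15522 genes tested. The 7 members with counts that did not keep it were Myod1 and Myoz2, which were highest in control 2, Mymk, Tnnt1 and Tnnt3, which were lower in cKO 2 than in control 1, and Myh2 and Myh7, which were at 0 in both low libraries. Counting error separated many but not all neighbours in the order. The interval of cKO 1 over control 2 lay above 1 for 29 of 35 members, held 1 for Myod1, Cdh15, Myh7, Actn2 and Ckm, and lay below 1 for Myoz2. The interval of control 2 over cKO 2 lay above 1 for 31 members and held 1 for Cdh15, Chrng, Tnnt1 and Tnnt2. Of the 33 members with counts in cKO 2 or control 1, the interval of cKO 2 over control 1 lay above 1 for 26 and held 1 for Mymk, Tnni2, Tnnt1, Tnnt3, Myoz2, Casq2 and Ckm.

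Of the transcription factors, only Myod1 and Myog were detected. Myod1, which commits cells to the muscle lineage, had 0 CPM in control 1, 0.569 in control 2, 0.497 in cKO 1 and 0.203 in cKO 2. Its highest and second libraries did not differ beyond counting error, with cKO 1 over control 2 at 0.873 (interval 0.551 to 1.38). Myog, which acts later and switches on the contractile genes, had 0, 0.556, 1.15 and 0.177 CPM in the same libraries. It was 2.07-fold (1.42 to 3.05) higher in cKO 1 than in control 2, so the later factor differed between these libraries where no difference was detectable for the earlier one. These levels rest on few reads, at most 44 for Myod1 and 88 for Myog. Pax7, the marker of muscle stem cells, Myf5, an early lineage factor, and Myf6, a factor of late differentiation, had 0 counts in all 4.

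The fusion and adhesion genes showed the same contrast within each genotype. Mymk encodes myomaker, the membrane protein needed for myoblast fusion, and had 0.0599 CPM in control 1, 0.608 in control 2, 1.33 in cKO 1 and 0 in cKO 2. It was at least 35.1-fold (lower limit 28.02) higher in cKO 1 than in cKO 2 and 10.2-fold (3.71 to 38.8) higher in control 2 than in control 1, where it had 4 counts. Cdh15, the muscle cadherin that joins myoblasts, had 0, 0.414, 0.471 and 0.241 CPM. Its cKO libraries lay close together, with a ratio of 1.96 (1.09 to 3.61), and cKO 1 over control 2 was 1.14 (0.687 to 1.89).

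Both acetylcholine receptor subunits, which form the channel at the nerve-muscle synapse, were at 0 in control 1. Chrna1, the ligand-binding alpha subunit, had 0, 1.90, 2.87 and 0.380 CPM in control 1, control 2, cKO 1 and cKO 2. It was at least 42.3-fold (lower limit 34.0) higher in control 2 than in control 1 and 7.53-fold (5.13 to 11.4) higher in cKO 1 than in cKO 2. Chrng, the gamma subunit of the fetal receptor, had 0, 8, 46 and 8 counts. Its level in cKO 1 stood alone, 5.82-fold (2.72 to 14.3) above control 2, while control 2 and cKO 2 did not differ beyond counting error (1.02, interval 0.334 to 3.12).

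The sarcomeric actins form the thin filament. Acta1, the skeletal alpha-actin, had 1.81 CPM in control 1, 7.91 in control 2, 13.9 in cKO 1 and 4.87 in cKO 2. Given as TPM, CPM corrected for exonic length and rescaled to a common total, it had the highest mean level of the members, 19.2 TPM. Actc1, the cardiac alpha-actin that developing skeletal muscle also makes, had 0, 3.16, 6.27 and 0.431 CPM. The 2 actins differed in steepness: Acta1 was 4.36-fold (3.58 to 5.35) higher in control 2 than in control 1 and Actc1 at least 70.3-fold (lower limit 56.7), and between cKO 1 and cKO 2 the ratios were 2.87 (2.55 to 3.23) for Acta1 and 14.5 (10.3 to 21.2) for Actc1. With Actc1 at 0 in control 1, all actin counts of the set in that library came from Acta1.

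Myosin heavy chains are the motors of the thick filament. Myh3, the embryonic heavy chain, had 0.270 CPM in control 1, 8.53 in control 2, 24.4 in cKO 1 and 3.78 in cKO 2. It rested on 18, 659, 1865 and 298 counts and was 31.6-fold (19.9 to 53.7) higher in control 2 than in control 1. Myh8, the perinatal heavy chain, had 0, 2.67, 7.28 and 0.761 CPM, at least 59.3-fold (lower limit 47.8) higher in control 2 than in control 1. Both developmental chains exceeded the 2.02-fold ratio of the sums between cKO 1 and control 2, with 2.86 (2.62 to 3.13) for Myh3 and 2.73 (2.32 to 3.22) for Myh8. The chains of adult fast fibres were measured lower than Myh3 per length: Myh1 had a mean of 2.90 TPM, Myh4 0.620 and Myh2 0.153, against 6.32 for Myh3 and 0.941 for Myh8. Myh1 had 0.0899, 6.03, 10.2 and 1.43 CPM, Myh4 had 0, 1.17, 2.28 and 0.165, and Myh2 had 0, 0.272, 0.785 and 0. Myh7, the slow and cardiac beta chain, had 0, 9, 19 and 0 counts. Mybph, a myosin-binding protein of the thick filament, had 0.464, 2.23, 4.06 and 1.36 CPM.

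The 5 chains Myh3, Myh2, Myh1, Myh4 and Myh8 lie side by side on chromosome 11 in that order, on the plus strand, from position 67078300 to 67308634 (GRCm38, the mm10 build), and their exons are similar. Of all 50-base stretches of Myh1 exons, 30.5% also occur in another gene, as do 24.6% for Myh2, 18.9% for Myh4, 12.1% for Myh8, 20.04% for Myh7, which shares them with Myh6, and 4.76% for Myh3. For Myod1, Myog, Mymk, Cdh15 and Actc1 the share was 0%. The sources used here do not say how reads matching several genes were counted, so the split among Myh1, Myh2 and Myh4 is uncertain. The same holds for Mybph, with 43.9% shared with the overlapping gene Adora1, and for Tnnc2, with 47.9% shared with Ube2c.

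The light chains that sit on the myosin neck were present in every library. Mylpf, the fast regulatory light chain, had 0.374 CPM in control 1, 3.57 in control 2, 7.47 in cKO 1 and 1.60 in cKO 2, and a mean of 12.7 TPM. Myl1, the fast alkali light chain, had 0.225, 2.88, 6.80 and 0.850 CPM and was 12.8-fold (7.62 to 23.3) higher in control 2 than in control 1. Myl4, the embryonic and atrial light chain, had the flattest profile of the light chains, with 1.54, 3.51, 7.22 and 2.31 CPM. The ratio of cKO 1 to control 2 was similar for the 3 genes, 2.09 for Mylpf, 2.36 for Myl1 and 2.06 for Myl4.

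Troponins are the calcium switch of the thin filament, made of a calcium-binding (Tnnc), an inhibitory (Tnni) and a tropomyosin-binding (Tnnt) subunit. Tnnt3, the fast Tnnt, had 2.13 CPM in control 1, 3.77 in control 2, 6.57 in cKO 1 and 1.85 in cKO 2. Tnnc1, the slow and cardiac Tnnc, had 0.839, 2.25, 4.46 and 1.46 CPM. These were among the members with the smallest differences between the controls, 1.77-fold (1.44 to 2.18) for Tnnt3 and 2.68-fold (1.98 to 3.70) for Tnnc1. Tnnt1, the slow Tnnt, hardly differed between the controls, with 0.689 and 0.712 CPM (ratio 1.03, interval 0.685 to 1.56), and had 1.27 in cKO 1 and 0.494 in cKO 2. Tnni2, the fast Tnni, had 0.779, 1.501, 2.24 and 0.786 CPM. The other troponins were at 0 in control 1, as most heavy chains were: Tnnc2, the fast Tnnc, Tnni1, the slow Tnni and Tnnt2, the cardiac and embryonic Tnnt. They had 1.25, 0.958 and 0.582 CPM in control 2, 4.00, 2.54 and 2.47 in cKO 1, and 0.380, 0.456 and 0.571 in cKO 2. Tnnt2 had the largest ratio of cKO 1 to control 2 among the tested members, 4.25 (3.05 to 6.02).

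The giant filament proteins span the sarcomere. Ttn, titin, the molecular spring, had 1.17 CPM in control 1, 10.6 in control 2, 23.3 in cKO 1 and 2.51 in cKO 2. Its count summed over the 4 libraries was the highest of the members, although its long transcript brings it to only 0.333 TPM. Neb, nebulin, which lines the thin filament, had 0.764, 5.49, 12.8 and 1.23 CPM. Klhl41, a nebulin-stabilising protein, had 0.210, 1.33, 2.45 and 0.431 CPM. The ratios of the 3 were close to each other, 9.05, 7.18 and 6.35 between the controls and 9.30, 10.4 and 5.68 between the cKO libraries.

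Genes of the Z disc, the border of the sarcomere, held a steep and a flat profile. Actn2, an alpha-actinin that anchors thin filaments, had 0 CPM in control 1, 2.28 in control 2, 2.49 in cKO 1 and 0.101 in cKO 2. It was 24.5-fold (12.2 to 57.6) higher in cKO 1 than in cKO 2, and did not differ beyond counting error between cKO 1 and control 2 (1.09, interval 0.885 to 1.35). Myoz2, a calcineurin-binding Z-disc protein, had 1.24, 2.58, 1.71 and 1.43 CPM. It was lower in cKO 1 than in control 2 (0.666, interval 0.530 to 0.834), and its cKO libraries did not differ beyond counting error (1.20, interval 0.923 to 1.55). Actn3, the alpha-actinin of fast fibres, had 0.345, 1.99, 3.10 and 0.837 CPM. Des, desmin, the intermediate filament that links the Z discs and also occurs in other muscle types, had 0.270, 3.90, 6.35 and 1.45 CPM.

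Genes of calcium release and energy supply followed the common order at low levels. Ryr1, the calcium release channel of the sarcoplasmic reticulum, had 0.240 CPM in control 1, 1.93 in control 2, 2.55 in cKO 1 and 0.659 in cKO 2. Casq2, a calcium store protein of slow and cardiac muscle, had 0.390, 1.17, 2.15 and 0.393 CPM, with the 2 low libraries nearly equal. Ckm, the muscle creatine kinase that buffers ATP, had 0, 24, 35 and 4 counts.

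**Figure D2:**
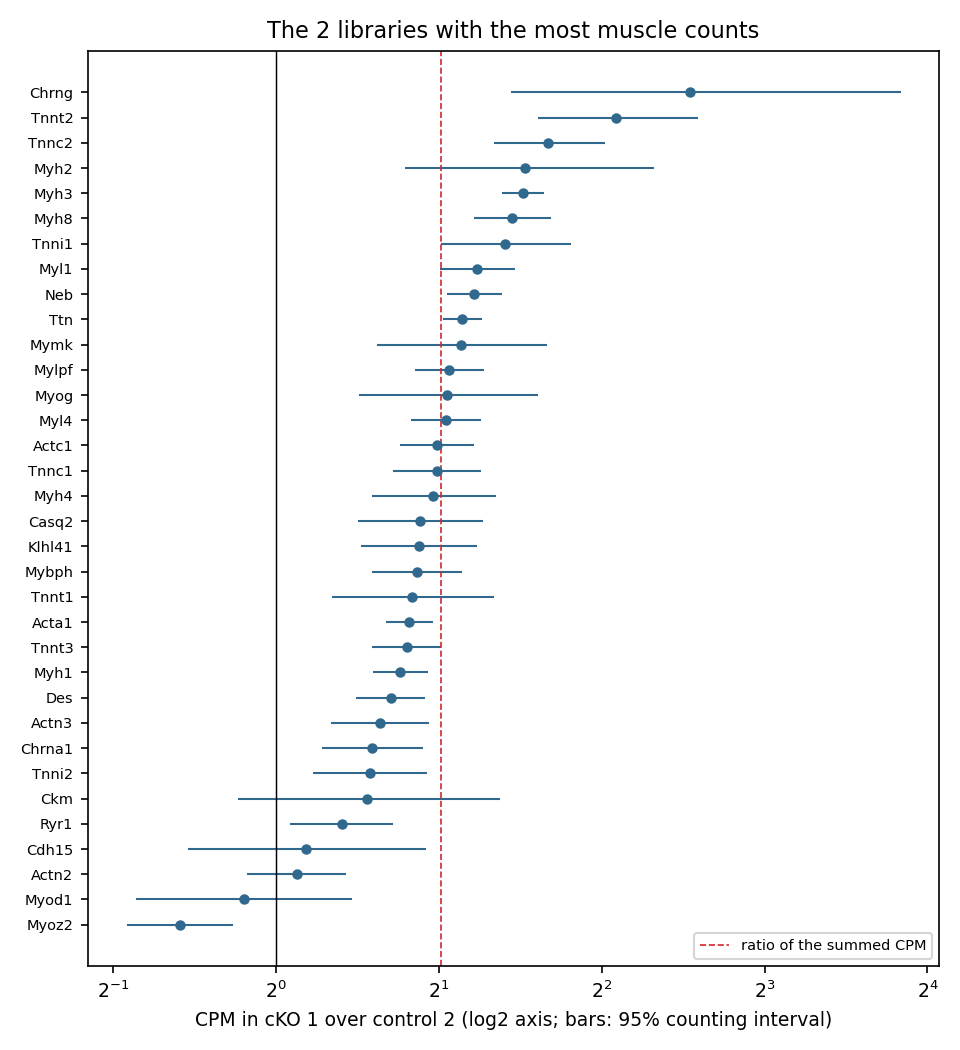
Ratio of CPM in cKO 1 to control 2 (log2 axis) for the 34 members with at least 50 counts in all, with 95% counting intervals; the dashed line is the ratio of the sums, 2.02. Chrng and Tnnt2 lie highest at 5.82 and 4.25, and Myoz2 lies lowest at 0.666.

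The makeup of the set differed between libraries, not only its amount, and mainly between control 1 and the others. In control 1, 18 members were at 0, most of them in the closing rows of the count table that are all 0 there. Whether these zeros mean that no read was found is not known, so the makeup of control 1 is uncertain. Of all 25239 symbols, 16531 had counts in control 1, against 16754 in control 2, 16924 in cKO 1 and 16985 in cKO 2. By length-scaled level, troponins made up 49.0% of the set in control 1 and 25.6%, 27.9% and 29.98% in control 2, cKO 1 and cKO 2. The heavy chains with Mybph made up 4.24% in control 1 and 12.5%, 14.4% and 11.4% in the other libraries, and the light chains 13.1% against 18.2%, 20% and 18.1%. Across the 34 members with at least 50 counts, log2 levels correlated between control 2 and cKO 1 with Pearson's r of 0.935 (Spearman's rho 0.926), and between control 2 and cKO 2 with r of 0.847 (0.845). Control 1 was less like the others, with r of 0.602 to control 2, 0.510 to cKO 1 and 0.754 to cKO 2. These coefficients run over genes of the same 4 libraries, which are not independent replicates, and many control 1 values are 0.

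The contrast within each genotype was then set against all genes tested. Control 2 was at least 2-fold above control 1 for 30 of the 33 tested members and for 4.54% of the 15522 tested genes. The exceptions were Tnni2, Tnnt1 and Tnnt3. Likewise, cKO 1 was at least 2-fold above cKO 2 for 31 members, all except Cdh15 and Myoz2, and for 3.72% of all genes. Both held for 28 members and for 1.22% of all genes. The median log2 ratio of the tested members was 3.64 between the controls and 2.46 between the cKO libraries, where the medians of all genes were -0.0035 and -0.02. The 33 members passed the filter through the libraries in which they were high, and libraries at 0 enter these log2 ratios with 0.5 counts, so these medians describe the libraries and are no test. They compare single libraries and not conditions.

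**Figure D3:**
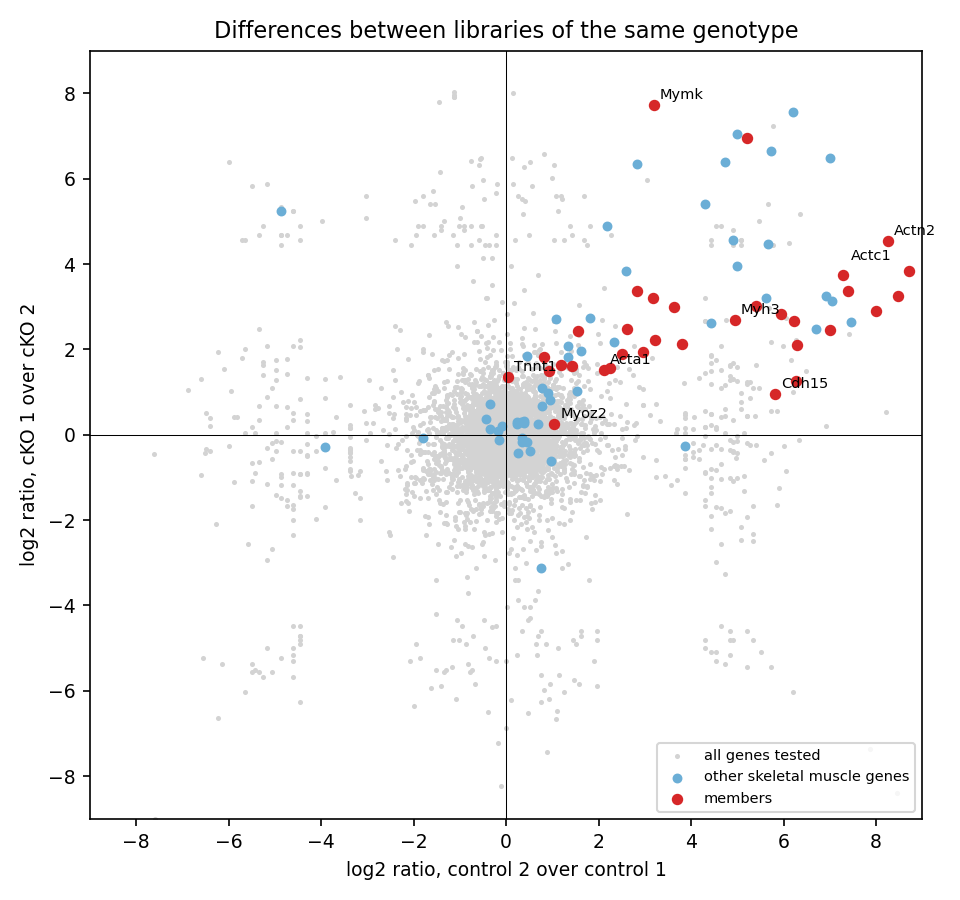
Log2 ratio of control 2 over control 1 against log2 ratio of cKO 1 over cKO 2 for all genes tested (grey), other skeletal muscle genes (blue) and the tested members (red), with 0.5 added to each count; 13 genes, none of them a member, lie outside the axes. All 33 tested members lie above 0 on both axes, Tnnt1 nearest to 0 on the first and Myoz2 on the second.

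For genotype, the comparison the study was designed for, no member was called in the fit without a block. In the edgeR quasi-likelihood test over all 15522 genes, 0 of the 33 tested members had an adjusted p under 0.05, against 202 genes or 1.3% of all. None had an unadjusted p under 0.05 either, against 17.2% of all genes, and DESeq2 also called 0 of 35 members, with 0 at an unadjusted p under 0.05. For none of the 33 did the 2 controls and the 2 cKO libraries separate without overlap, against 51.7% of all genes. The members were chosen with earlier results of these data known. These counts beside all genes therefore describe the set and are no test of it. The lowest adjusted p among the members was 0.475, for Tnnt2 with a log2 fold change of 2.30 ± 1.41 (SE). Acta1 had 0.89 ± 0.73 (adjusted p 0.604), Myh3 1.61 ± 1.32 (0.601), Myog 1.18 ± 1.59 (0.770) and Myoz2 -0.35 ± 0.43 (0.748). The 5 members without a test were the 3 at 0, Chrng and Myh7.

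Most estimates were above 0. The library with the highest muscle sum was a cKO library, and the library with the lowest was a control. The log2 fold change was above 0 for 32 of the 33 members, with a median of 0.87 where the median of all genes was 0.00. This median moved with single libraries. For the same 33 members it was 0.10 without control 1, 3.79 without control 2, -0.75 without cKO 1 and 1.54 without cKO 2. Without cKO 1, 31 of 33 tested members were below 0. No direction for genotype can be given for the set.

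**Figure D4:**
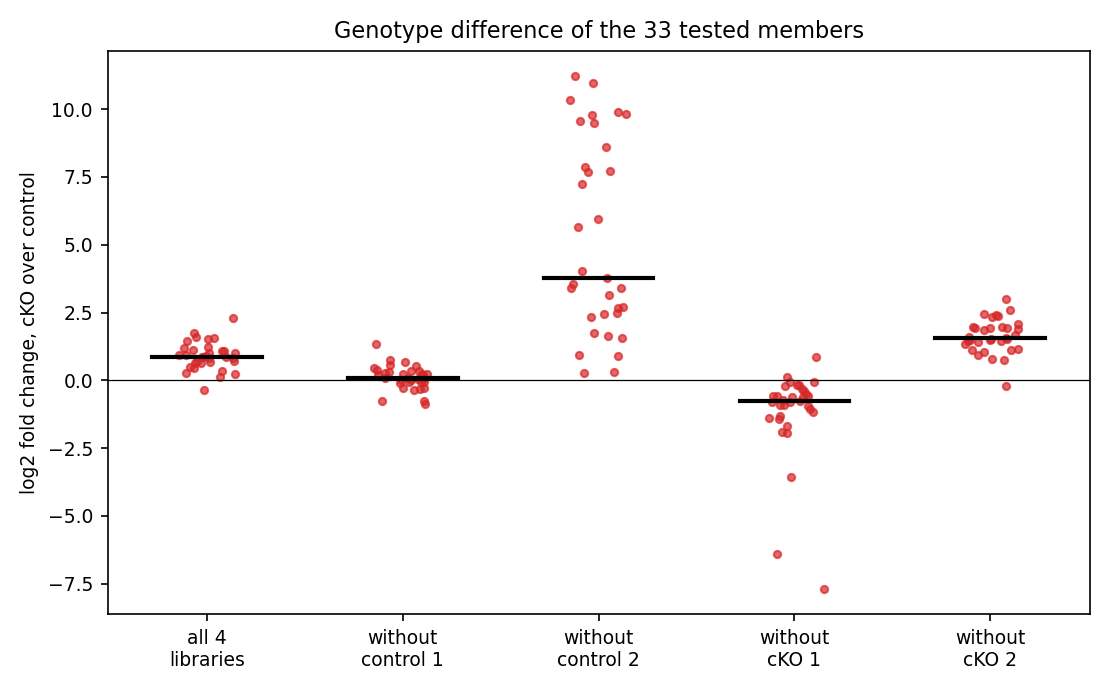
Log2 fold change of cKO over control for the 33 tested members with all 4 libraries and with each library left out; points are genes, spread sideways only to be seen, and bars are medians. The median is 0.87 with all libraries, 3.79 without control 2 and -0.75 without cKO 1.

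A further list of 68 skeletal muscle genes, written from general knowledge and holding no member, was examined in the same way. Like the members, it was chosen with earlier results of these data known. Some of its tested genes had counts only in control 2 and cKO 1 and passed the filter through these. The counts for this list are therefore a description and no test. Of the 53 tested, 0 were called for genotype by edgeR, 5 had an unadjusted p under 0.05, and 13 did not overlap between genotypes, where the shares of all genes tested were 1.3%, 17.2% and 51.7%. Control 2 was at least 2-fold above control 1 for 26 of them and cKO 1 at least 2-fold above cKO 2 for 28, with 25 in both, where the shares of all genes were 4.54%, 3.72% and 1.22%. Atp2a1, the calcium pump of fast fibres, followed the members with 8, 211, 434 and 72 counts in control 1, control 2, cKO 1 and cKO 2. Mybpc1, a myosin-binding protein C, had 0, 101, 219 and 36 counts, and Chrnd, the delta subunit of the acetylcholine receptor, had 0, 42, 91 and 0. Mymx, the partner of Mymk in fusion, had 0, 4, 28 and 0. These 4 were picked after their values were seen. Genes with the highest levels in the list did not follow the members: Mef2c, also a factor of cartilage, had 25.4, 33.3, 27.9 and 22.9 CPM, Itga7, a laminin receptor, had 19.8, 25.1, 23.7 and 26.7, and Jph2, a junction protein, had 17.5, 16.6, 23.6 and 20.6. The sum of the list therefore moved little, from 145 CPM in control 1 to 185 in control 2, 216 in cKO 1 and 169 in cKO 2.

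The sums of marker lists for other cell types differed less between libraries than the sum of the muscle set. The 12 heart markers summed to 12.1, 16.7, 22.7 and 19.1 CPM in control 1, control 2, cKO 1 and cKO 2, with Myl7 and Mybpc3 at 0 in all libraries and 4 to 7 markers at 0 in each. Most of these sums came from Tbx5, with 8.32, 11.8, 15.6 and 11.7 CPM, and Hand2, with 3.19, 4.43, 6.52 and 6.16 CPM, both transcription factors that limb tissue also uses. The 12 smooth muscle markers summed to 755 to 965 CPM, with cKO 1 highest, and none was at 0 except 1 in cKO 2. The 6 tendon markers ranged from 857 to 1056 CPM, mostly from Fmod, with 880, 1018, 965 and 819 CPM in the same library order. Of the 6, 2 kept the order of the muscle set. These were Scx, with 15.8, 17.4, 19.7 and 16.6 CPM, and Thbs4, with 5.26, 8.90, 11.7 and 7.37 CPM. The 8 fibroblast markers ranged from 7347 to 9900 CPM, and the 8 adipocyte markers from 220 to 545, highest in cKO 2. The 6 Schwann cell markers summed to 3.03 to 4.01 CPM, with Sox10 at 0 in all libraries. The 6 endothelial markers had the same order as the muscle set, at 0.479, 0.906, 0.968 and 0.811 CPM, with control 2 over control 1 at 1.89 (1.23 to 2.97) and cKO 2 over control 1 at 1.69 (1.09 to 2.67), while control 2, cKO 1 and cKO 2 did not differ from each other beyond counting error. The endothelial sums rested on 32, 70, 74 and 64 counts, mostly of Kdr and Tek, and 0 of the 6 markers kept the order. The 6 macrophage markers ranged from 10.9 CPM in control 2 to 16.5 in control 1, mostly from Cd68. The 7 osteoblast markers ranged from 58.5 to 61.1 CPM. The 14 chondrocyte markers, all detected in every library, summed to 29110 and 33760 CPM in the controls and 17140 and 12770 in cKO 1 and cKO 2, and 11 of the 14 were called lower in cKO, against 0.908% of all genes tested. Relative to the chondrocyte sum, the muscle sum was thus small in every library. The part of other cell types in the differences among the muscle genes was not tested.

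**Figure D5:**
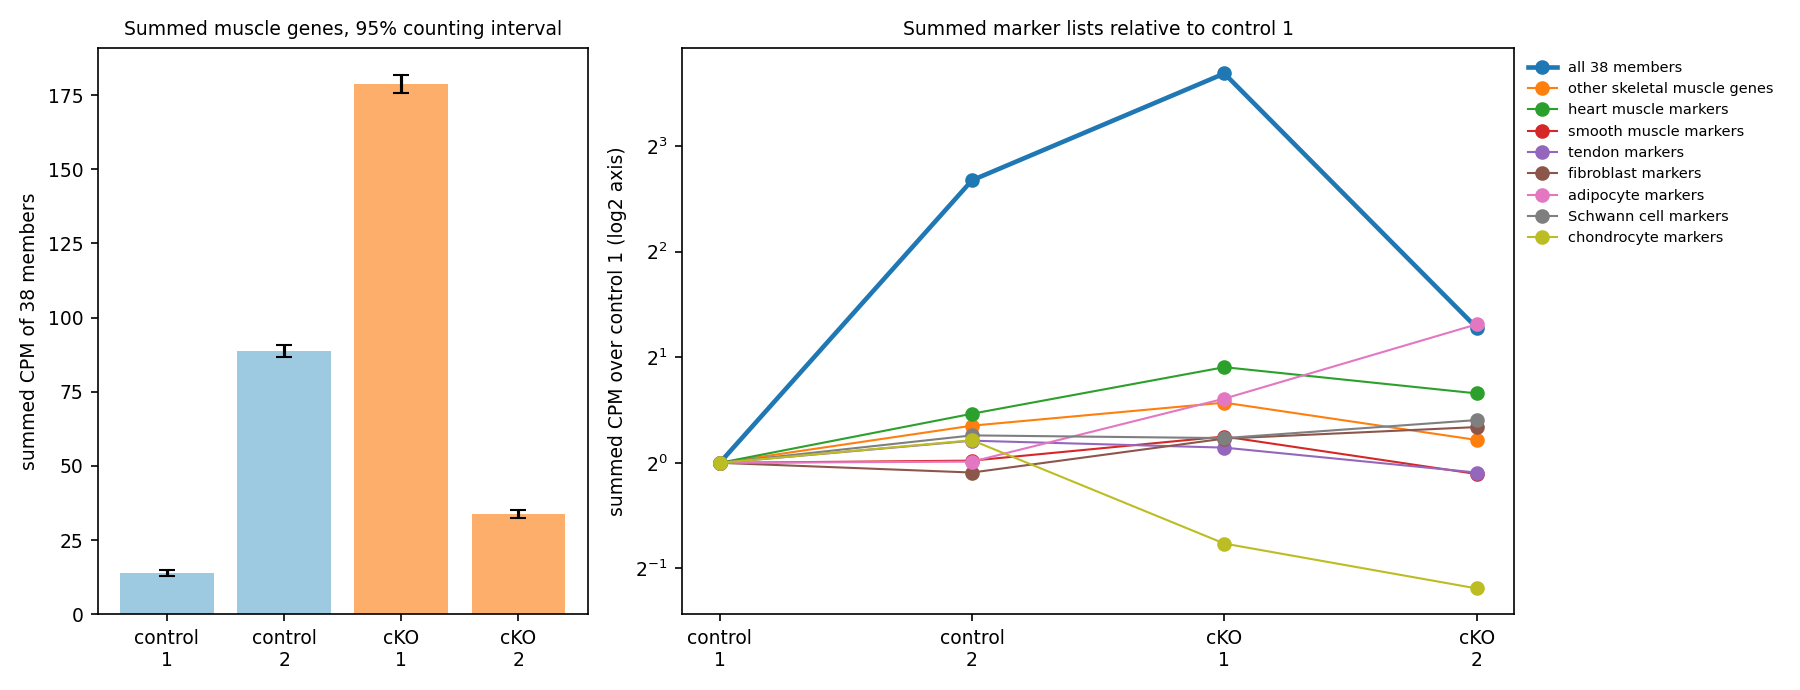
Left, summed CPM of the 38 members per library with 95% exact Poisson intervals (blue controls, orange cKO); right, summed CPM of each marker list divided by its value in control 1 (log2 axis). The muscle set lies at 13.9 CPM in control 1 and 179 in cKO 1, while the other lists keep nearer to their control 1 level.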

How the data were processed

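Poly(A) RNA of 4 libraries of primary mouse chondrocytes, 2 per genotype, was sequenced. Groups and replicate numbers follow the labels. The authors deposited unscaled read counts, 1 column per library and 1 row per gene symbol. Build mm10 and, among tools, HISAT2 2.2.1, StringTie 2.1.7, FastQC 0.11.9 and Trim Galore 0.6.7 appear in the submitters' processing notes. The sources used here do not name the counting tool, its strand setting or the annotation. Among values of 1 to 20 counts, 30.0% to 32.0% were multiples of 4, against 25.0% for an even spread; the cause was not tested.

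CPM were computed on library totals, and length-scaled TPM on GENCODE M21 exons, which held 96.5% of the symbols. Genes were kept by filterByExpr (minimum count 10; 15522 genes), scaled by TMM and tested for genotype with edgeR 4.0.16 (quasi-likelihood, R 4.3.3) without covariates, with Benjamini-Hochberg adjustment over all genes tested and a threshold of 0.05. The script was tested on simulated data. Alternatives were DESeq2 1.42.0, other scalings and filters, a replicate block and each library left out. Intervals of sums are exact Poisson, and those of ratios are exact binomial at a level of 95% (scipy 1.17.1).

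The members and all lists were chosen with earlier results of these data known. Named with full values were all transcription factors, the 2 members of each role with the highest mean length-scaled level, the 2 with the largest and the 2 with the smallest ratio within a genotype, any member called, and the 4 highest genes of the further muscle list, of which 1 is not reported here; the values of the remaining members were added for completeness. Motifs were searched in RefSeq promoter windows. Strand was not stated, so reads of overlapping genes cannot be told apart.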

Additional observations from a re-analysis of the deposited data

How the results depend on the processing

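No member was called for genotype under DESeq2's size factors, library sizes alone, no filter, DESeq2, the replicate block or any left-out library. Over all genes, the 202 calls became 1082 with the DESeq2 test, which also called 1 gene of the further muscle list, Jph1, lower, and 5 to 782 with a library left out, the highest without cKO 1. With library sizes alone, the calls were 116 higher and 123 lower, against 61 higher and 141 lower. The labels do not say what replicate numbers share, and deviations of same-numbered libraries correlated at -0.122 over all tested genes. With the replicate block, 23 genes and 0 members were called. With the crossed replicate block, chosen after seeing the data, 564 genes and 2 members were called. The cause of these changes was not tested.

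The median log2 fold change of the tested members ran from -0.75 to 4.03 when each library was left out. The value for Mymk under the replicate block was -0.25. Lowest and highest log2 fold changes with a library left out crossed 0 for these genes: Acta1 -0.080 to 2.32, Actc1 -1.95 to 10.94, Actn3 -0.57 to 2.45, Casq2 -1.06 to 1.65, Cdh15 -0.28 to 7.71, Chrna1 -1.40 to 9.90, Ckm -1.67 to 7.23, Des -0.61 to 3.79, Itga7 -0.064 to 0.29, Klhl41 -0.92 to 2.71, Mybph -0.072 to 2.48, Myh3 -0.30 to 5.64, Myh8 -0.89 to 11.21, Myl1 -0.96 to 4.03, Mylpf -0.39 to 3.54, Mymk -7.68 to 3.39, Myod1 -0.76 to 7.69, Myog -0.73 to 8.61, Myoz2 -0.78 to 0.28, Neb -1.43 to 3.14, Tnnc1 -0.17 to 1.76, Tnnt1 -0.58 to 0.80 and Tnnt3 -0.75 to 1.10. With control 2 left out, genes at 0 in control 1 have no control counts, and their fitted values depend on the prior count. The order of the 4 libraries in the summed level held on TMM-scaled sizes, without Ttn and on the length-scaled scale, where the highest library exceeded the lowest 9.99-fold. Low counts limit the transcription factors and Ckm, where differences under about the width of their intervals were not detectable.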

Other observations

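Genes outside both muscle lists were searched for the members' pattern, with 2-fold differences in both genotypes, the same order of libraries and at least 50 counts. It was met by 77 genes, of which 25 were members, 12 belonged to the further muscle list and 40 to neither. The genes named next were picked from these 40 after their values were seen. Trim72, a membrane repair protein of muscle, had 0, 98, 180 and 36 counts in control 1, control 2, cKO 1 and cKO 2. Igfn1, a protein of skeletal muscle, had 0, 40, 54 and 2, and Alpk3, a kinase of heart and skeletal muscle, had 0, 44, 74 and 16. Synpo2l, a Z-disc protein, had 34, 128, 181 and 57 counts. Others had no known place in the sarcomere and larger counts: C1s2, a complement protease gene, had 57, 1799, 1936 and 307, and Pianp, a membrane protein gene known from brain, had 13, 806, 1047 and 137.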
